A study of Mus musculus with 12 samples.

Results

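De novo lipogenesis, the making of fatty acids from carbohydrate carbon, was followed through its enzymes and their regulators in epididymal white adipose tissue (eWAT) of cold-exposed mice. The 9 genes were chosen by symbol: Acly, Acss2, Acaca, Acacb, Fasn, and Me1 among the enzymes, and Thrsp, Srebf1, and Mlxipl among the regulators. Of these 9, 7 had a probe set annotated to that gene alone, among 14860 such genes on the arrays. The only probe set that carries Acss2 also carries a second symbol, so it was set aside, and Me1 was not analysed here. RNA was read on 12 Affymetrix exon arrays, with 3 arrays for each of 4 groups of male C57BL/6J mice that carried no transgene or drug and were 7 to 8 weeks old when purchased. The first group was kept at 30°C, a thermoneutral temperature at which mice need no extra heat. The cold groups spent 1 week at 18°C and 1 week at 4°C, and the second group then stayed at 4°C. The other two were first lowered in steps within a week, with days of –5°C for 3 days and of –10°C after that, and nights of 4°C. For the last 3 weeks, one of these was held at –10°C and the other at –20°C by day and –10°C by night (–10°C/–20°C). The exposure lasted 5 weeks with the stay at 4°C counted. The labels shorten the name of the –10°C/–20°C group, here the coldest group, to –20°C. They call the arrays of a group biological replicates without naming mice or cages, so the tests reflect the scatter of these arrays, which may be partly technical.

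Fatty acids are built from acetyl-CoA in the cytosol. ATP citrate lyase (Acly) releases acetyl-CoA from citrate, acetyl-CoA carboxylases (Acaca and Acacb) turn it into malonyl-CoA, and fatty acid synthase (Fasn) joins these units into palmitate with NADPH as the reductant. The gene Srebf1 encodes SREBP-1, a membrane-bound factor that is released by cleavage and acts downstream of insulin, Mlxipl encodes ChREBP, which responds to glucose metabolites, and Thrsp (Spot 14) is a small protein of lipogenic tissues first known as a thyroid hormone response gene.

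The promoters of Acly, Fasn, and Thrsp are shown because these genes moved together across the arrays. Those of Acacb and Srebf1 are shown because these genes departed from them. Acaca also moved with Acly, Fasn, and Thrsp, but its window, which held none of the motifs searched, is not shown. Each window runs from 250 bases before to 50 bases after an annotated transcription start, 5′ to 3′ on the gene's strand, from RefSeq (GRCm38.p6). Capitals mark the NF-Y box (CCAAT) and the Sp1 box (GGGCGG) on either strand, both bound by known partners of SREBP-1 at lipogenic promoters.
Fasn, chr11:120824498-120824797, minus strand: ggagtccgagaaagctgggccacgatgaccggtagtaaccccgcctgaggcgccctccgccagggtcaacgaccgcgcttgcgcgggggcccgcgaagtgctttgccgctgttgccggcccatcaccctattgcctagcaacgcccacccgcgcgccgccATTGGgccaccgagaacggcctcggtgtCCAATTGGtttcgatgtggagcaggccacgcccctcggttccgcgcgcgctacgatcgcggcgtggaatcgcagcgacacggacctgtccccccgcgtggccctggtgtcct
Acly, chr11:100527951-100528250, minus strand: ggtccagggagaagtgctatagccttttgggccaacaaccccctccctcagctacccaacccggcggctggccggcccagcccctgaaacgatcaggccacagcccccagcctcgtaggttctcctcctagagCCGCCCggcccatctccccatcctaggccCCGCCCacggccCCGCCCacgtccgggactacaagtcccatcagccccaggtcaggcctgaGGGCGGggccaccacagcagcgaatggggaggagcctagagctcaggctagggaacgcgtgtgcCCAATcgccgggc
Thrsp, chr7:97417501-97417800, minus strand: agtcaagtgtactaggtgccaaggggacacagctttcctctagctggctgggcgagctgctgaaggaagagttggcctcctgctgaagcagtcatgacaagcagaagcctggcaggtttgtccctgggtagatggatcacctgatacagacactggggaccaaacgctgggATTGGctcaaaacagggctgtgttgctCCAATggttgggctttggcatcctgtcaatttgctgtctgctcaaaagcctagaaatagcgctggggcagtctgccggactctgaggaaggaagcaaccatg
Acacb, chr5:114165268-114165567, plus strand: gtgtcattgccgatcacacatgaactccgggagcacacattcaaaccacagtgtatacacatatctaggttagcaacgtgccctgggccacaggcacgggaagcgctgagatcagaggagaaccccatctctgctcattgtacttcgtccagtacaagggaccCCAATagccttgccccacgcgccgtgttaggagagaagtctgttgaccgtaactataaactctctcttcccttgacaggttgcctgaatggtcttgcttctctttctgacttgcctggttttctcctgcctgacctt
Srebf1, chr11:60210422-60210721, minus strand: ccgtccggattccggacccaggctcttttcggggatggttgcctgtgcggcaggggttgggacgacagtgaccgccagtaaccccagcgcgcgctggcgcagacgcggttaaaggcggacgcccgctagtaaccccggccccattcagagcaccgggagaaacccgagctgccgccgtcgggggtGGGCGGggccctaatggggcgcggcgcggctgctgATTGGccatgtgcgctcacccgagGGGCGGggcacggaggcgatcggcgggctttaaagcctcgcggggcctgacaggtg
The Fasn window held 3 NF-Y boxes, of which the 2 nearest the start overlap each other at -62 to -58 and -59 to -55 (the start base is 0). The Thrsp window held 2, at -79 to -75 and -52 to -48, and the Acacb window 1, at -87 to -83. In the Acly window, 4 Sp1 boxes lay before the start, and 1 NF-Y box lay after it. RefSeq lists 3 starts for Srebf1, of which the one farthest downstream on the gene's strand is shown, with 1 NF-Y box and 2 Sp1 boxes, and the arrays give a single value for the gene. Of all 32851 windows, 37.4% held an NF-Y box and 35.7% an Sp1 box, so these matches are common. The E-box (CACGTG, in 7.15% of windows) occurred among the members in a window of Mlxipl at -98 to -93. The sterol response element, searched as TCACNCCAC (in 1.24% of windows), occurred in the other window of Mlxipl. The carbohydrate response element (in 0.0274% of windows) and the DR4 element bound by LXR and thyroid hormone receptors (in 0.0152%) had no match in any of the 13 windows of the members. The annotated window of Acaca held none of the motifs. All motifs were searched on both strands, and a match is a run of letters and not a tested binding site.

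The deposited values are log2 signals, so a difference of 1 is a doubling, and each gene's signal can be compared between arrays but not with that of another gene. Background was set at 4.52, below which 95% of 718 olfactory receptor genes lay, and all 7 members were above it on all 12 arrays. Fat cell markers were bright, with means over the arrays of 12.24 for Adipoq and 12.51 for Cidec, whereas of 5 genes of epididymis and testis, Lcn5 and Defb1 were below background on all arrays and Prm1 and Prm2, which encode sperm protamines, were above it on all 12. Medians of the arrays ranged from 5.19 to 5.44. Array correlations were 0.974 to 0.993 within groups and 0.966 to 0.992 between groups. In the study's supplementary table, the names of 4 arrays (30°C replicates 1 and 2, and 4°C replicates 1 and 2) have a shorter form than the other 8, for which the sources used here give no reason. All arrays of the 2 coldest groups have the longer form.

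The lipogenic genes of eWAT were higher in the cold, and 5 of them were already higher with 4°C. Compared with 30°C, 5 of 7 members were higher with 4°C (Acaca, Acacb, Fasn, Srebf1, and Thrsp), 7 of 7 with –10°C, and 5 of 7 in the coldest group (Acly, Acaca, Acacb, Fasn, and Thrsp), at an adjusted p under 0.05 from limma. Over all genes, 2.10%, 5.30%, and 7.19% were higher in these comparisons, and 140, 451, and 1639 of the 14860 were lower. The median log2 fold change of the members was 1.41, 1.68, and 1.70, and that of all genes was 0.01, 0.03, and -0.03. All 3 arrays lay above all 3 at 30°C for 7, 7, and 6 of the 7 members, against 9.56%, 15.0%, and 11.7% of all genes. In a limma F-test over the 4 groups, 7 of 7 members differed, against 17.1% of all genes. Mlxipl was nearest the threshold in this F-test (adjusted p = 0.047). Under some alternatives 6 of 7 passed, among them the one-way analysis of variance, the replicate block, and the name form as a block. The unpaired t-test of the study's methods, adjusted over the same genes, called 0, 1, and 2 of 7 members higher in the 3 cold groups (6, 7, and 5 at an unadjusted p under 0.05), against 0%, 0.0740%, and 1.51% of all genes. In bulk tissue, fewer cells of a type and less RNA per cell cannot be told apart.

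**Figure D1:**
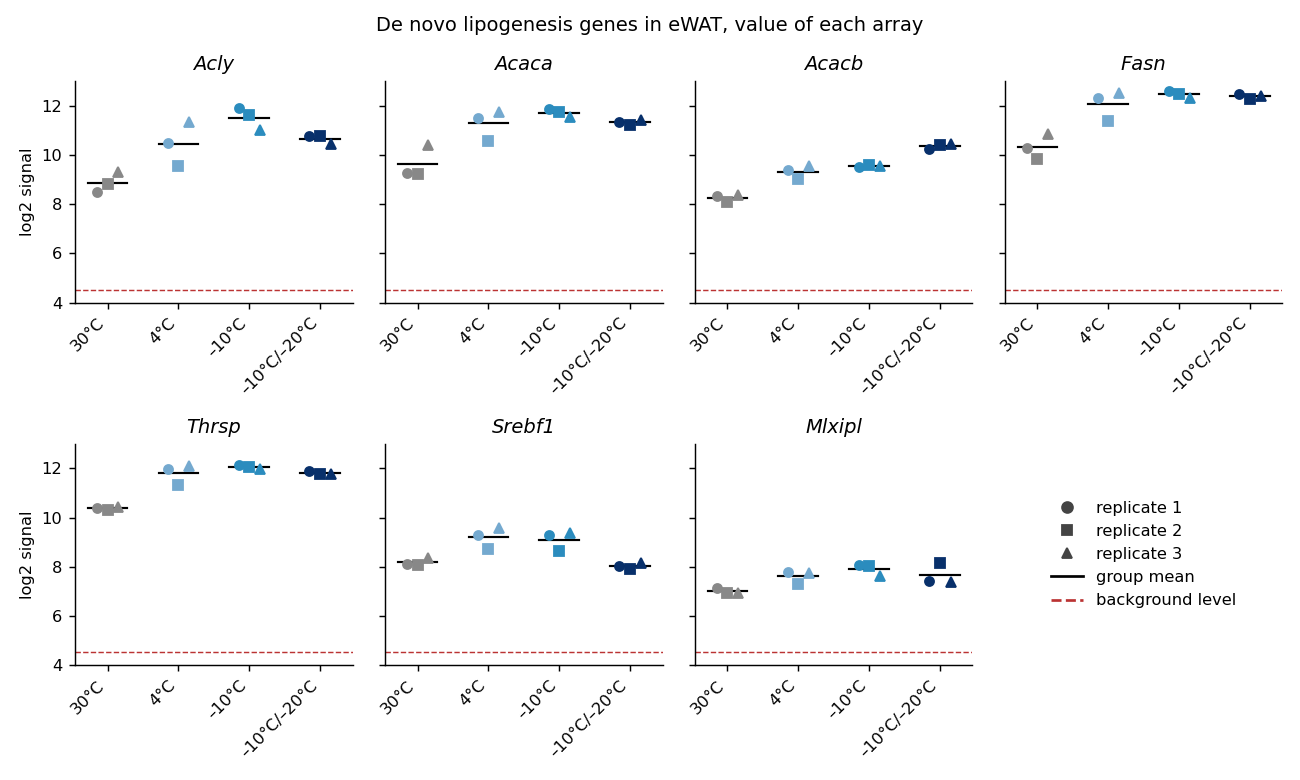
Log2 signal (vertical axis) of the 7 members on each of the 12 arrays, by temperature group (horizontal axis). Symbols stand for replicates, black bars for group means, and the dashed line for the background level of 4.52. With –10°C, all 3 arrays of each member lay above all 3 at 30°C, whereas Srebf1 in the coldest group overlapped the values at 30°C.

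Acly had the widest range of the members. Its log2 signals were 8.502, 8.81, and 9.31 at 30°C, 10.47, 9.54, and 11.34 at 4°C, 11.89, 11.60, and 10.99 with –10°C, and 10.77, 10.76, and 10.46 in the coldest group. The cold groups did not overlap the 30°C group, and the 4°C arrays were the most scattered (SD 0.90). Acly rose 6.16-fold with –10°C (a log2 difference of 2.62, SE 0.39, adjusted p = 0.0028) and 3.46-fold in the coldest group (adjusted p = 0.0078). With 4°C its log2 fold change was 1.58 (95% confidence interval 0.73 to 2.43), which did not pass the test (adjusted p = 0.057). With arrays left out in turn, the log2 fold change of Acly with 4°C ran from 1.14 to 2.03, and the call changed in 1 of 12 such fits. That fit left out 4°C replicate 2, the lowest Acly array of its group, so a larger difference was built in (2.03, limma adjusted p = 0.0093). When the name form was fitted as a block, the rise with –10°C was 1.96 (adjusted p = 0.024), and the value in the coldest group was 1.13 and did not pass (adjusted p = 0.068).

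Both carboxylases were higher in all 3 cold groups. The mean rise was larger in Acaca for 4°C and –10°C and in Acacb for the coldest group. These orderings were not separated by a two-sided exact permutation test (p = 0.2, 0.2, and 0.4, where 0.1 is the smallest possible). Acaca, the cytosolic form that feeds fatty acid synthesis, had values of 9.26, 9.22, and 10.41 with 30°C, 11.51, 10.58, and 11.75 with 4°C, 11.87, 11.73, and 11.54 with –10°C, and 11.35, 11.22, and 11.43 in the coldest group. Its 30°C replicate 3 lay close to the lowest 4°C array, and no cold array was below it. Acaca rose by 1.65, 2.09, and 1.70 on the log2 scale in the 3 cold groups, from mild to severe (SE 0.33, adjusted p = 0.024, 0.0038, and 0.0042). When the name form was fitted as a block, the rises were 1.65, 1.46, and 1.08 (adjusted p = 0.0046, 0.024, and 0.025). The call with 4°C was lost when 30°C replicate 1 or 2, or 4°C replicate 1 or 3, was left out (adjusted p = 0.10, 0.0998, 0.11, and 0.096).

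Acacb, the form bound to mitochondria whose malonyl-CoA is known to restrain the entry of fatty acids for oxidation, had values of 8.33, 8.08, and 8.37 with 30°C and of 9.40, 9.02, and 9.53 with 4°C. With –10°C they were 9.51, 9.58, and 9.54, and in the coldest group 10.25, 10.38, and 10.43. Arrays of the coldest group were all above those of every other group. Acacb rose by 1.06, 1.28, and 2.09 on the log2 scale in the 3 cold groups (SE 0.13, adjusted p = 0.0025, 6.5e-04, and 1.2e-05), the last a 4.27-fold increase. It was the only member to rise further between –10°C and the coldest group, by 0.81 (adjusted p = 0.0054), where 2.02% of all genes were higher. Compared with 4°C, it was 1.04 higher in the coldest group (adjusted p = 0.0013), where 2.53% were higher. Among only the 8 arrays of the longer name form, where the lone 4°C array is taken to scatter like the rest, this last difference was 0.82 (adjusted p = 0.086).

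From –10°C to the coldest group, Acacb changed by 0.81 and Acaca by -0.38 on the log2 scale. The difference between their signals within each array (Acacb minus Acaca) was -2.37, -2.15, and -2.01 with –10°C and -1.11, -0.83, and -1.001 in the coldest group. It was -2.11, -1.56, and -2.22 with 4°C and -0.93, -1.15, and -2.04 with 30°C. Only changes of this quantity between groups can be read, since the probe sets differ in brightness. The coldest group did not overlap the –10°C or 4°C groups, but overlapped the 30°C group. The shift against –10°C was 1.19 and that against 4°C was 0.98 (two-sided exact permutation p = 0.1 for each, the smallest that 3 against 3 arrays allow), and that against 30°C was 0.39 (p = 0.4 by the same exact test). Against 30°C the difference was also -0.59 with 4°C and -0.80 with –10°C (exact p = 0.2 for each), where Acaca had risen more than Acacb. This pair was examined after its values were seen.

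**Figure D2:**
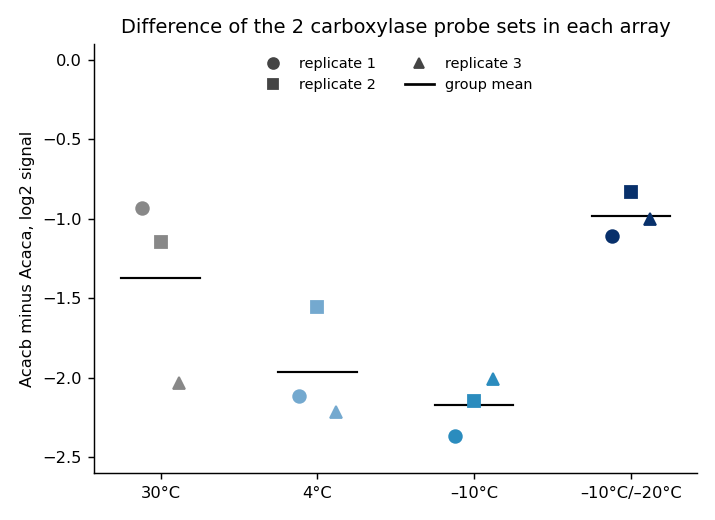
Log2 signal of Acacb minus that of Acaca (vertical axis) on each array, by temperature group (horizontal axis), with symbols for replicates and bars for group means. The 3 arrays in the coldest group lay between -1.11 and -0.83, above all arrays with –10°C (-2.37 to -2.01) and 4°C (-2.22 to -1.56), and among those with 30°C.

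Fasn, the synthase itself, had values of 10.27, 9.85, and 10.84 with 30°C, 12.32, 11.38, and 12.52 with 4°C, 12.58, 12.48, and 12.33 with –10°C, and 12.48, 12.29, and 12.39 in the coldest group. The arrays of the 2 coldest groups lay close together (SD 0.13 and 0.10), and those with 30°C and 4°C were wider (SD 0.50 and 0.61). Fasn rose 3.37-fold with 4°C, 4.43-fold with –10°C, and 4.19-fold in the coldest group (log2 fold changes 1.75, 2.15, and 2.07, SE 0.29, adjusted p = 0.0093, 0.0017, and 5.5e-04). The call with 4°C was lost without 4°C replicate 1 (adjusted p = 0.053). Between the coldest group and –10°C its difference was -0.08, with a 95% confidence interval of -0.71 to 0.55.

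Thrsp had the tightest groups at 30°C, with values of 10.38, 10.32, and 10.45. They were 11.99, 11.32, and 12.09 with 4°C, 12.15, 12.06, and 11.98 with –10°C, and 11.88, 11.77, and 11.78 in the coldest group. Every cold array was above every 30°C array, by at least 0.87 on the log2 scale. Thrsp rose in the 3 cold groups by log2 differences of 1.41, 1.68, and 1.42 (SE 0.16, adjusted p = 0.0017, 5.4e-04, and 1.9e-04). Its 3 arrays in the coldest group were all below those with –10°C, by a mean of 0.26, which did not pass the test (adjusted p = 0.44).

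Srebf1 was raised with 4°C and –10°C and lay near its 30°C level in the coldest group. Its values were 8.10, 8.05, and 8.37 with 30°C, 9.31, 8.74, and 9.59 with 4°C, 9.30, 8.63, and 9.35 with –10°C, and 8.03, 7.90, and 8.13 in the coldest group. The second array of both the 4°C and –10°C groups was the lowest of its group, yet above all arrays of the 30°C and coldest groups. Srebf1 rose by 1.04 with 4°C (SE 0.23, adjusted p = 0.034) and by 0.92 with –10°C (adjusted p = 0.030). In the coldest group its log2 fold change against 30°C was -0.15 (95% confidence interval -0.65 to 0.35, adjusted p = 0.76).

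The drop of Srebf1 in the coldest group was tested directly. Relative to –10°C, the coldest group was 2.10-fold lower (log2 fold change -1.07, adjusted p = 0.018), where 5.14% of all genes were lower, and relative to 4°C it was 2.29-fold lower (log2 fold change -1.19, adjusted p = 0.0074), where 7.24% were lower. The first of these calls was lost with each array centred on its median (adjusted p = 0.067), and without –10°C replicate 1, –10°C replicate 3, or coldest-group replicate 2 (adjusted p = 0.082, 0.074, and 0.076). The second was lost among only the 8 arrays of the longer name form (-1.57, adjusted p = 0.097). The rises with 4°C and –10°C were also the least firm of the called ones. With 4°C the call was lost without 30°C replicate 1 or 2, 4°C replicate 1 or 3, or coldest-group replicate 2 or 3 (adjusted p = 0.12, 0.12, 0.15, 0.12, 0.053, and 0.053), and with –10°C without 30°C replicate 1 or 2 or –10°C replicate 1 or 3 (adjusted p = 0.099, 0.11, 0.11, and 0.11). When the name form was fitted as a block, the –10°C rise was 0.64 (adjusted p = 0.27).

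Mlxipl had the narrowest range of the members over the 12 arrays, 1.24 on the log2 scale, and was called against 30°C in the –10°C group only. It had values of 7.14, 6.93, and 6.92 with 30°C, 7.80, 7.32, and 7.75 with 4°C, 8.06, 8.04, and 7.62 with –10°C, and 7.42, 8.16, and 7.38 in the coldest group. All 9 cold arrays were above the highest at 30°C, and the second array of the coldest group stood above the other two of its group. Mlxipl rose by 0.91 on the log2 scale with –10°C (SE 0.21, adjusted p = 0.022). Its log2 fold change was 0.63 with 4°C (adjusted p = 0.17) and 0.66 in the coldest group (adjusted p = 0.053). The call with –10°C was lost without 30°C replicate 2 or 3 or –10°C replicate 1 or 2 (adjusted p = 0.078, 0.057, 0.086, and 0.084) and when the name form was fitted as a block (adjusted p = 0.14).

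**Figure D3:**
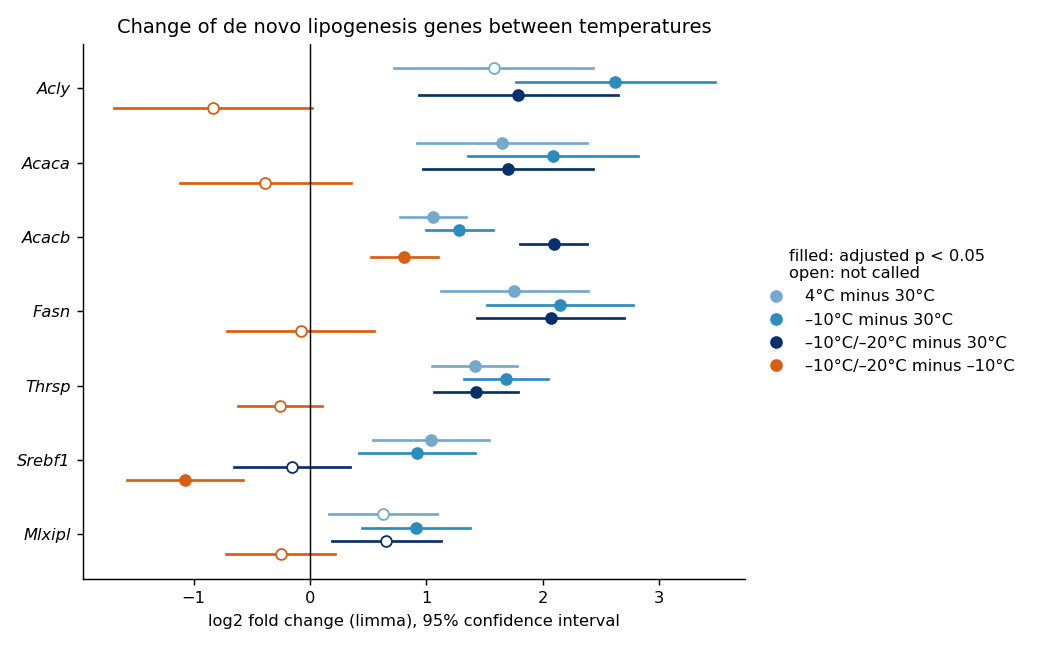
Log2 fold change from limma (horizontal axis) of each member (vertical axis) for the 3 cold groups against 30°C and for the coldest group against –10°C, with bars for the 95% confidence interval and filled points for an adjusted p under 0.05. Acacb (0.81) and Srebf1 (-1.07) are the members with a filled point between the 2 coldest groups.

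From high to low, the group means ran –10°C, coldest, 4°C, and 30°C for 5 members (Acly, Acaca, Fasn, Mlxipl, and Thrsp). Among the first 3 groups of this order, limma called no difference for any of these 5, and each of them was called or not against 30°C as given above. Acacb had the coldest group on top, and Srebf1 had it at the bottom, next to 30°C. Between –10°C and 4°C, limma called 0 of 7 members, 1 at an unadjusted p under 0.05 (Acly, log2 fold change 1.04), where 0.0404% of all genes were called and 1065 genes passed unadjusted. The median difference of the members was 0.28. Between the coldest group and –10°C, 4 of 7 members had all arrays below, against 20.3% of all genes, and Acly had the largest difference of those not called, -0.83 (95% confidence interval -1.69 to 0.02, adjusted p = 0.26).

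Within the 30°C and 4°C groups, most members deviated from the group mean in the same direction on an array. The second 4°C array was below its group mean for 7 of 7 members, with a median deviation of -0.48, whereas the median deviation of the adipocyte markers on it was -0.08 and that of all genes was 0.03. The other two 4°C arrays were above the mean for 7 of 7. At 30°C, replicate 2 was below the mean for 7 of 7 and replicate 3 above it for 6 of 7. With –10°C, where all arrays have the longer name form, replicate 1 was above the mean for 6 of 7 and replicate 3 below it for 6 of 7. The arrays of the coldest group were split, with 2 to 4 of 7 members below. In the 30°C and 4°C groups, the array whose name has the longer form was the highest for 6 of 7 members. Within each form of name, 4°C minus 30°C was above 0 for all 7 members (14 of 14 differences), and within the longer form the means of the 2 coldest groups were above the single 30°C array for 7 and 6 of 7. With the name form as a block, 6, 5, and 4 of 7 members were higher in the 3 cold groups, against 1.95%, 1.24%, and 3.73% of all genes in that fit, and Acacb (0.81) and Srebf1 (-1.07) differed between the 2 coldest groups as before. The part of the name form in these values cannot be told apart from temperature for the 2 coldest groups beyond this.

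**Figure D4:**
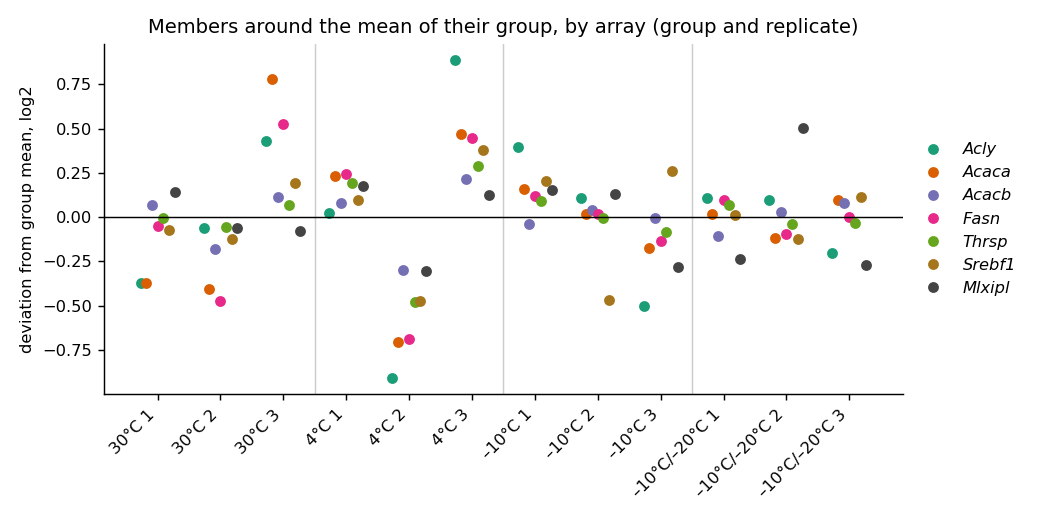
Deviation of each member from the mean of its group in log2 units (vertical axis), for the 12 arrays by group and replicate (horizontal axis), with a colour for each gene. All 7 members lay below 0 on the second 4°C array and above 0 on the other two.

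Across the 12 arrays, the pairs among Acly, Acaca, Fasn, and Thrsp correlated at 0.927 to 0.980, and after the group means were removed at 0.766 to 0.948. Pairs with Srebf1 correlated at 0.020 to 0.556 (-0.015 to 0.688 without the group means), pairs with Mlxipl at 0.405 to 0.851 (-0.015 to 0.471), and pairs with Acacb at 0.020 to 0.872 (0.431 to 0.855). Without the group means, Srebf1 correlated at -0.015 with Mlxipl and at 0.541 to 0.688 with the other members. These are descriptions over arrays that share 4 groups and a normalization. Among 10448 genes above background, the patterns most like that of Fasn were those of Pcx (Pearson r = 0.986), Aacs, and Gpd1, and the most like Thrsp were Gpd1 (0.986), Elovl6, and Dgat2. Acly was nearest to Elovl6 (0.978), Slc25a11, and Lss, and Acaca to Fasn (0.980), Gpd1, and Taldo1. Acacb was nearest to Adtrp (0.989), Bcat2, and Aldh1l1. Srebf1 was nearest to Tbl2 (0.958), Oxtr, and Phlda3, and Mlxipl to D5Ertd579e (0.896), Nop56, and Fam110c. Only Acaca had another member among its 3 nearest genes.

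Most measured genes that supply citrate and acetyl-CoA rose with the members in the main fit. Of 6 measured, 5, 5, and 4 were higher in the 3 cold groups, and 0 were lower. Over all genes, 2.10%, 5.30%, and 7.19% were higher. With the name form as a block, 5, 3, and 2 of the 6 were higher. In the main fit the medians of the 6 were 0.76, 0.88, and 0.75 on the log2 scale. The citrate carrier Slc25a1 rose by 1.08, 1.51, and 1.19, pyruvate carboxylase (Pcx) by 0.86, 0.99, and 1.04, the dicarboxylate carrier Slc25a10 by 1.38, 1.47, and 0.95, and citrate synthase (Cs) by 0.51, 0.76, and 0.56. Of 7 genes listed around NADPH supply, 4, 5, and 4 were higher in the main fit, and 4, 2, and 3 with the name form as a block. The 4 of the main fit in the coldest group were Me2, a mitochondrial malic enzyme (1.38), and the pentose phosphate enzymes Pgd (0.88), Tkt (0.87), and Taldo1 (0.76). Tkt and Taldo1 do not make NADPH themselves, and Me2 mainly makes NADH, so the count is not a measure of NADPH supply. H6pd, the pentose phosphate entry enzyme of the endoplasmic reticulum, was lower in the coldest group (-0.69, adjusted p = 0.0035) and is named after its values were seen.

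The genes that elongate and desaturate new fatty acids did not move as a block. Of 10 measured, 4, 5, and 5 were higher, and 1 was lower in the coldest group (Elovl1, -0.82, named after its values were seen). Elovl6, which extends palmitate, rose by 2.68, 3.90, and 3.28 on the log2 scale in the 3 cold groups, with adjusted p = 0.015, 0.0013, and 8.2e-04. Hsd17b12, the ketoreductase of the same cycle, rose by 1.28, 1.64, and 1.72. Elovl3, an elongase of cold-exposed fat, was below background on all arrays at 30°C. In the coldest group its increase was at least 22.1-fold (log2 difference as measured 6.18, adjusted p = 2.2e-04), where a fold against a dim group is taken against the background level. Scd3, a desaturase and a close relative of Scd1 and Scd2, was also below background on all arrays at 30°C and rose at least 33.8-fold in the coldest group (log2 difference as measured 5.61, adjusted p = 2.0e-05).

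**Figure D5:**
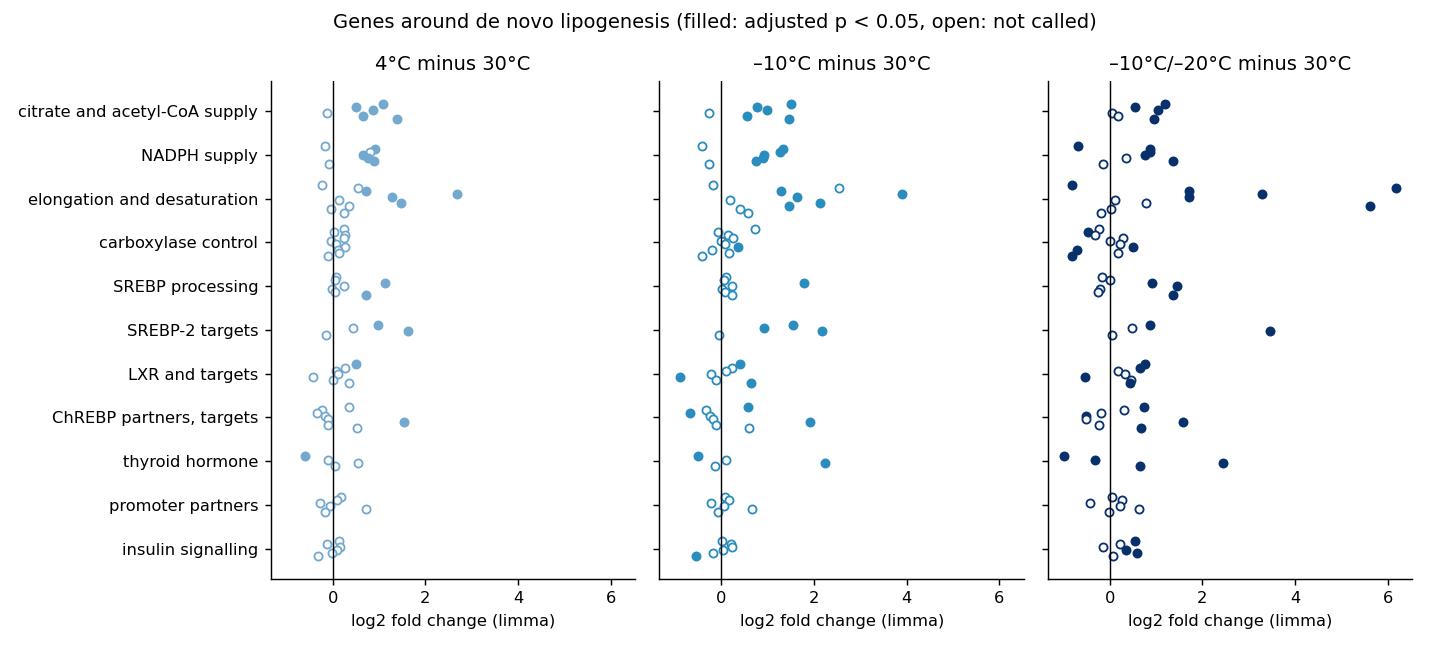
Log2 fold change from limma (horizontal axes) of measured genes around de novo lipogenesis, grouped by role (vertical axis), for the 3 cold groups against 30°C, with filled points for an adjusted p under 0.05. Most genes listed around citrate and NADPH supply have filled points above 0 in all 3 panels, whereas the promoter partners of SREBP have none.

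Of 7 measured genes that govern SREBP, 2, 1, and 3 were higher than at 30°C in the 3 cold groups, and 0 were lower. The counts higher were 1, 1, and 2 with the name form as a block. In the coldest group, where Srebf1 dropped, 2 were higher than with –10°C, 2 were higher than with 4°C, and 0 were lower. The medians of the 7 log2 fold changes were -0.23 and -0.20 there, against -0.07 and -0.04 for all genes. At an unadjusted p under 0.05 (limma), 4 of 7 passed against –10°C and 2 against 4°C. Insig1, which holds SREBP in the endoplasmic reticulum and is itself a target of SREBP, rose by 1.12, 1.79, and 0.91 (adjusted p = 0.049, 0.0029, and 0.036). Its relative Insig2 had fold changes of 0.25 and 0.24 with 4°C and –10°C and rose by 1.45 in the coldest group (adjusted p = 7.7e-04), 1.21 above –10°C (adjusted p = 0.0080). Lpin1, a phosphatidate phosphatase that also restrains SREBP in the nucleus, rose by 0.72 with 4°C and 1.37 in the coldest group, and was 1.15 higher in the coldest group than with –10°C (adjusted p = 4.0e-04). Srebf2, Scap, Mbtps1, and Fbxw7 were not called against 30°C, with log2 fold changes of -0.26 to 0.11 over the 3 cold groups. Of 4 SREBP-2 targets of cholesterol synthesis, one of which (Fdps) was below background on all arrays, 2, 3, and 2 were higher, among them Cyp51 by 3.47 and Hmgcs1 by 0.87 in the coldest group.

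The liver X receptor (LXR) is a known activator of Srebf1 transcription. Of 7 genes of LXR and its targets, 1, 2, and 3 were higher and 0, 1, and 1 lower. Over all 14860 genes, 312, 788, and 1068 were higher and 140, 451, and 1639 lower. With the name form as a block, 1, 0, and 1 of the 7 were higher and 0, 1, and 0 lower. Nr1h3, which encodes LXR alpha, rose by 0.51, 0.42, and 0.75 (adjusted p = 0.022, 0.028, and 4.5e-04). Its partner Rxra rose by 0.65 and the target Lpcat3 by 0.43 in the coldest group, whereas the target Abcg1 was lower with –10°C (-0.90) and in the coldest group (-0.53).

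Around ChREBP, 1, 2, and 3 of 8 genes were higher and 0, 1, and 1 lower. Over all 14860 genes, 312, 788, and 1068 were higher and 140, 451, and 1639 lower. With the name form as a block, 1, 1, and 2 of the 8 were higher and 0 were lower. Mlx, the obligate partner of ChREBP, rose by 0.58 with –10°C and 0.74 in the coldest group, and Mlxip, its paralog MondoA, was 0.62 higher in the coldest group than with –10°C (adjusted p = 0.0064). Gpd1, which makes glycerol 3-phosphate, rose by 1.55, 1.91, and 1.59. The target Txnip was lower with –10°C (-0.66, adjusted p = 0.022), and Arrdc4 in the coldest group (-0.50, adjusted p = 0.033). Pklr and Khk were not called in any of these comparisons (log2 fold changes -0.50 to -0.09).

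Of 10 regulators of acetyl-CoA carboxylase and users of its product, limma called 0 with 4°C and 1 with –10°C (1 and 4 at an unadjusted p under 0.05). In the coldest group, Prkag1, a subunit of AMP-activated kinase, rose by 0.51, and 3 were lower, where 1639 of all 14860 genes were lower. The name form as a block left 1 higher and 2 lower. The 3 lower in the main fit were Prkag2 (-0.70), another subunit of this kinase, Hlcs (-0.46), which attaches biotin to carboxylases, and Cpt1a. Cpt1a (-0.81, adjusted p = 8.7e-04) is a mitochondrial transferase that malonyl-CoA inhibits. Its relative Cpt1b had no probe set annotated to it alone and was not measured. Mid1ip1, a relative of Thrsp, had log2 fold changes of 0.24, 0.74, and -0.23, which were not called. Of 4 thyroid hormone genes, 2 rose and 2 fell in the coldest group, where 1068 and 1639 of all 14860 genes were higher and lower. The name form as a block left 2 higher and 1 lower. Dio2, which activates the hormone, was below background on all arrays at 30°C and was at least 3.47-fold higher (log2 difference as measured 2.45), and the coactivator Ncoa1 rose by 0.65. The receptors Thra (-0.98) and Thrb (-0.32) were lower, and Thra was lower in all 3 cold groups.

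The 6 promoter-binding partners of SREBP, namely Usf1, Usf2, 3 subunits of NF-Y, and Sp1, were not called in any of the cold groups against 30°C (limma, with 1, 1, and 3 of 6 at an unadjusted p under 0.05). The 2 with the highest mean signal, Usf2 and Nfya, differed by 0.26 and -0.43 in the coldest group. Of 6 genes of insulin signalling, 3 rose in the coldest group, Foxo1 (0.58), Insr (0.55), and Akt1 (0.36), where 7.19% of all genes were higher. With the name form as a block, 2 of the 6 rose there. In the main fit 0 rose with 4°C (1 unadjusted) and 0 with –10°C. Foxo3 was lower with –10°C (-0.53), a call lost under that block.

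Markers of other cells moved with temperature beside these genes. Of 7 measured macrophage markers, 1, 3, and 5 were lower in the 3 cold groups (0, 2, and 5 with the name form as a block). Among them were Adgre1 (-1.53), Cd68 (-1.49), Csf1r (-1.16), and Cd14 (-0.99) in the coldest group. Over all 14860 genes, 140, 451, and 1639 were lower in these comparisons. The summed signal of the 7 markers on the linear scale was 3252 to 4074 with 30°C, 2692 to 2736 with 4°C, 1954 to 2245 with –10°C, and 1715 to 2027 in the coldest group. The 7 macrophage markers stayed above background on all arrays. The summed signal of 8 adipocyte markers was 23550 to 25574 with 30°C, 25091 to 27150 with 4°C, 24848 to 25609 with –10°C, and 21722 to 24912 in the coldest group. Of these 8, 0 were called with 4°C and –10°C (limma, 3 unadjusted in each), and in the coldest group Pparg rose by 0.50 and Lep changed by -6.48. Of 5 brown fat genes, 1, 3, and 4 were higher (1, 2, and 3 with the name form as a block). In the coldest group, Cidea rose by 3.41 and Cox8b by 3.28. Ucp1, which is 1 of the 4, was above background on 1 array only, so that no fold is given for it. Other markers also differed in the coldest group. The collagens Col3a1 (-2.15) and Col1a1 (-2.08) were lower among 6 stromal genes, and Wt1 was lower among 4 of mesothelium. Cd3g and Cd4 were lower among 6 of lymphocytes, where the name form as a block left 0 lower. Kdr rose among 6 of endothelium. The 5 epididymis and testis genes (limma, 0 called and 0 unadjusted) and the 2 muscle genes (0 called, 1 unadjusted) were not called in the coldest group. On single arrays, the summed signal of these 5 was 110, 320, and 369 with –10°C. It was 115 to 168 with 30°C, 107 to 178 with 4°C, and 93 to 202 in the coldest group. The part of these cell markers in the changes of the lipogenic genes was not tested.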

How the data were processed

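RNA of eWAT from 4 temperature groups was hybridized to 12 arrays. Log2 signals were deposited as the authors computed them, for which the submitters' processing notes name RMA and Affymetrix Expression Console. RMA corrects for background and normalizes between arrays. No version of either is stated in the labels or the paper. Symbols came from the platform annotation, with 14996 probe sets naming 1 gene, 1019 several, and 7317 none. Where a gene had several probe sets (135 genes), the brightest was kept.

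Groups were compared with limma 3.58.1 (lmFit and eBayes, R 4.3.3) on the deposited log2 values of all 12 arrays, with Benjamini-Hochberg adjustment over 14860 genes. An adjusted p under 0.05 is a call. The code was tested on simulated data, and figures were drawn with matplotlib 3.10.9. Precision is limited by the number of arrays and by how far a signal stands above background. The members and gene lists were chosen with earlier results of these data known. All members are named. Of each other list, the text gives counts and names up to 4 genes, by the size of their change in the coldest group among called genes, or the 2 brightest where none was called. The lists of SREBP, LXR, ChREBP, and carboxylase regulators may be named in full. For likeness, the 3 genes with the highest Pearson r to each member are named.

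Same-numbered replicates deviated from their group means with correlations of -0.41 to 0.61, and 12 of 18 pairs were over 0.1. All 3 pairs were over 0.1 only between the 2 coldest groups. The labels name no shared batch, so replicates were not paired in the main fit. Alternatives were the methods' unpaired test and analysis of variance with adjustment, a trended robust fit, a filter on dim genes, repeated quantile normalization, centring on the array median, only the arrays compared, all probe sets, the mean of a gene's probe sets, arrayWeights, the replicate block, a block for the name form of the arrays, and each array left out. A fit of only the 8 arrays of longer name form was chosen after seeing the data. Promoter windows and their coordinates came from RefSeq (GRCm38.p6), and no build is stated for the array annotation.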

Additional observations from a re-analysis of the deposited data

Results flagged for a closer look

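A probe set that carries 2 symbols, of which Acss2 (an acetyl-CoA synthetase) is one, was left out of the comparisons because its signal cannot be assigned to either gene. It shows a signal in data outside them. Its log2 values were 7.47, 7.44, and 7.83 with 30°C, 10.01, 8.69, and 10.61 with 4°C, 11.06, 10.75, and 10.39 with –10°C, and 10.07, 9.63, and 9.57 in the coldest group (–20°C by day). All 9 cold arrays were above all arrays at 30°C. In a limma fit over all 23332 probe sets, it was higher than at 30°C by 2.19, 3.15, and 2.18 in the 3 cold groups (SE 0.40, adjusted p = 0.031, 0.0036, and 0.0054).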

How the results depend on the processing

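Against 30°C, the differences of all members but Srebf1 in the coldest group were above 0 in the 3 cold groups under every alternative run. The methods' t-test with adjustment called 0 of 7 members at 4°C, 1 at –10°C, and 2 in the coldest group against 30°C, and for the coldest group 0 against 4°C and 0 against –10°C. For 4°C, 2 were called with only the arrays of these groups and 3 with all probe sets. Centring of each array on its median left 1 call between the coldest group and –10°C, and moved the median of all genes in the coldest group from -0.03 to 0.13 against 30°C, from -0.04 to 0.14 against 4°C, and from -0.07 to 0.11 against –10°C. The 8 arrays of longer name form alone gave 2 calls for 4°C, 4 for –10°C, and 0 for the coldest group against 4°C. With arrays left out in turn, 2 to 6 members were called for 4°C, 5 to 7 for –10°C, and 5 to 6 for the coldest group against 30°C, and 1 to 2 between the 2 coldest groups. For 4°C, 2 were called without 4°C replicate 1, and 3 without 30°C replicate 1, 30°C replicate 2, or 4°C replicate 3. Between the 2 coldest groups, 1 was called without –10°C replicate 1, –10°C replicate 3, or coldest-group replicate 2. The arrayWeights fit stopped before it converged. Over all 24 alternatives, adjusted p against 30°C ranged as follows for members whose call changed in a limma fit other than that of the 8 arrays. At 4°C it was 0.0029 to 0.46 for Acly, 4.1e-04 to 0.42 for Acaca, 1.5e-04 to 0.34 for Fasn, 0.0017 to 0.34 for Srebf1, and 0.016 to 0.50 for Mlxipl. At –10°C it was 0.0025 to 0.35 for Srebf1 and 0.0044 to 0.27 for Mlxipl, and in the coldest group 7.8e-04 to 0.068 for Acly and 0.020 to 0.26 for Mlxipl. Between the 2 coldest groups it was 0.0033 to 0.16 for Srebf1, and for the coldest group against 4°C 1.6e-04 to 0.092 for Acacb and 0.0014 to 0.14 for Srebf1. The replicate block moved no count by over 1.5 times, and under it Acacb (0.81, adjusted p = 0.0054) and Srebf1 (-1.07, adjusted p = 0.0033) differed between the 2 coldest groups.

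Signs turned only for differences that were not called. Between the 2 coldest groups, Fasn was 0.093 after centring. For the coldest group against 4°C, arrayWeights gave Acaca -0.067, Mlxipl -0.12, and Thrsp -0.13, and the name form as a block gave Acly -0.45, Acaca -0.57, Fasn -0.17, and Thrsp -0.17. The 8 arrays gave Acly -0.68, Acaca -0.41, Fasn -0.14, Mlxipl -0.093, and Thrsp -0.28. With arrays left out, Acly ran from -0.24 to 0.66, Acaca from -0.30 to 0.29, Fasn from -0.033 to 0.54, Mlxipl from -0.22 to 0.17, and Thrsp from -0.23 to 0.15, each below 0 without 4°C replicate 2, and Thrsp and Mlxipl also without coldest-group replicate 1 and replicate 2, respectively. For –10°C against 4°C, the name form as a block gave Acaca -0.19 and Fasn -0.093, the 8 arrays gave Acaca -0.031, Fasn -0.055, and Thrsp -0.023, and Srebf1 ran from -0.36 to 0.11, above 0 without 4°C replicate 3 or –10°C replicate 2. The causes were not tested.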
